A study of Mus musculus with 13 samples.

Results

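Genes of hepatic stellate cells and of the extracellular matrix were described in murine liver, in RNA-seq libraries prepared from Balb/c mice that had received GalNAc-conjugated antisense oligonucleotides (ASOs). The genes were a fixed list of 38 symbols, chosen with earlier results of these data known. Each row of the deposited liver table with one of these symbols was taken. Of the 38 genes, 37 were found among the 11779 genes of the table. Timp1, an inhibitor of matrix metalloproteinases, was not among the listed rows, and it has no value here. The liver samples were 3 mice given a mix of 5 ASOs against the long non-coding RNA LL35, at 150 mg/kg, and 3 mice given the control ASO against firefly luciferase (Luc ASO), all collected on day 5. The labels give that dose for each ASO, whereas the methods give it as the total. The paper's text gives 5 conjugates against LL35 for the liver, whereas its supplementary list of ASOs for mice holds fewer. Both groups carried GalNAc, a sugar ligand that directs oligonucleotides to the hepatocyte asialoglycoprotein receptor, and no uninjected liver was analysed here. The gene of LL35 itself, 9030622O22Rik, has 0 rows in the table, so the knockdown could not be checked. Libraries of the hepatocyte line AML12, 3 with Luc ASO and 4 with LL35 ASO, were not analysed here.

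The values used are the authors' mean normalized counts, averaged over the compared liver libraries of both groups. They give the level of a gene in these livers as a whole, and they give no level for a single mouse or a single group. No standard deviation, interval or test can therefore stand beside any level below, and no difference between LL35 ASO and Luc ASO livers is reported. The number of reads behind each library is unknown. The listed genes had mean normalized counts from 15.6 upward, with a median of 235, so a gene of lower level would not be seen. To compare genes with each other, the mean normalized count was divided by the length of all annotated exons of the gene in kb, and this level per kb of exon is the quantity given unless another is named.

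Stellate cells are the vitamin A-storing pericytes of the liver, which lie between hepatocytes and the sinusoidal endothelium. In injured liver they turn into contractile, collagen-secreting myofibroblasts, a change driven by platelet-derived growth factor (PDGF) and transforming growth factor beta (TGF-beta). The matrix they lay down consists of fibrillar collagens, basement membrane collagens, proteoglycans and glycoproteins, and its breakdown is held back by tissue inhibitors of metalloproteinases. Some matrix proteins in the liver are not products of stellate cells: hepatocytes secrete plasma fibronectin, for example.

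The collagen chains are the largest family among these genes, and their coding sequences show what they have in common. A collagen triple helix is built from triplets of residues that each begin with glycine, and each glycine codon has the form GGN, where N is any base. The longest unbroken stretches of such triplets begin as follows in 4 chains of different types, which are shown because long and short repeats differ between fibrillar and basement membrane chains. The capitals mark the GGN codon that opens each triplet, and a GGN codon elsewhere in a triplet, as in Col3a1, stays in lower case. Each sequence is 72 bases of the coding strand, 5′ to 3′, from the GENCODE transcript with the longest coding sequence.
Col1a1: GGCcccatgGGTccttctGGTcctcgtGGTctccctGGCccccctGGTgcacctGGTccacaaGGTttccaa
Col3a1: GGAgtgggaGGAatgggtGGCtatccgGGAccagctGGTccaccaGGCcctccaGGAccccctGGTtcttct
Col4a1: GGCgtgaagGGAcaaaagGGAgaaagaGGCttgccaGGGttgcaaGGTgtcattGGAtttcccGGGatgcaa
Col18a1: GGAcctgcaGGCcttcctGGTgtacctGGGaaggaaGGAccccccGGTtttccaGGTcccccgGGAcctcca

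The stretch of Col1a1, on chromosome 11, covers coding bases 502 to 573, counted from the start codon, and the repeat continues for 338 GGN codons. In Col3a1, on chromosome 1, the stretch covers bases 490 to 561 and the repeat continues for 344. The repeats of the basement membrane chains are interrupted sooner, after 40 in Col4a1 (chromosome 8, bases 127 to 198) and after 30 in Col18a1 (chromosome 10, bases 2857 to 2928). Short repeats are not particular to basement membrane chains: the longest has 32 GGN codons in Col14a1, 45 in Col6a3 and 87 in both Col6a1 and Col6a2.

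Across the 12 collagen chains among the members, between 9.07% and 28.6% of codons were GGN, with 7 chains above 20%. The 25 other members had a median of 6.82%, close to the median of 6.29% over 11276 listed genes with a whole coding sequence. An unbroken repeat of at least 20 GGN codons was present in 31 of these genes, and all 12 collagen chains were among them. Of the other members, 2 had such a repeat, and both were collectins: Colec10 and Colec11, with 24 GGN codons each. Collectins are soluble lectins of innate immunity that carry a collagen-like stalk. Col6a3, with a GGN share of 9.07%, and Col14a1, with 10.8%, had the lowest shares of the collagen chains, since the repeat fills only a part of their long coding sequences.

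**Figure D1:**
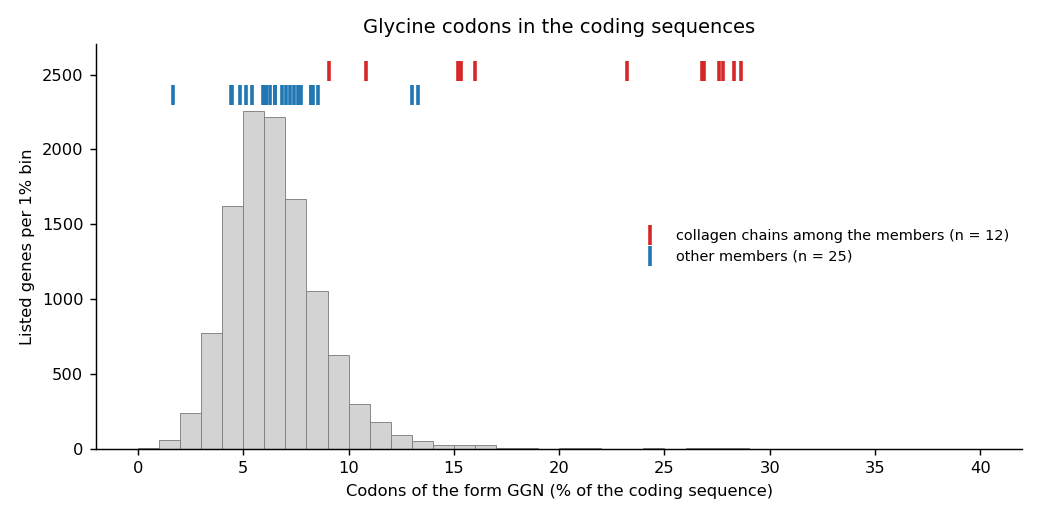
Share of GGN codons in the coding sequence. The grey bars count all listed genes with a whole coding sequence in bins of 1% (x axis, percent of codons; y axis, genes), and the ticks above them mark the 12 collagen chains in red and the 25 other members in blue. The red ticks run from 9.07% to 28.6%, whereas the grey bars have a median of 6.29%.

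In these livers, the 37 listed members spanned a 730-fold range of level per kb. Fn1, the gene of fibronectin, stood highest with 3498 and Col5a2, a chain of the minor fibrillar collagen V, lowest with 4.79. The median member had a level of 40.4 per kb, and the median of all listed genes was 51.5. Of the 37 members, 18 lay above the median of all genes and 19 below. The median member stood at the 42.5th percentile of all genes per kb, and at the 56.4th percentile by the undivided mean normalized count. In such bulk samples, the number of cells of a type and the amount of RNA in each cell cannot be told apart.

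**Figure D2:**
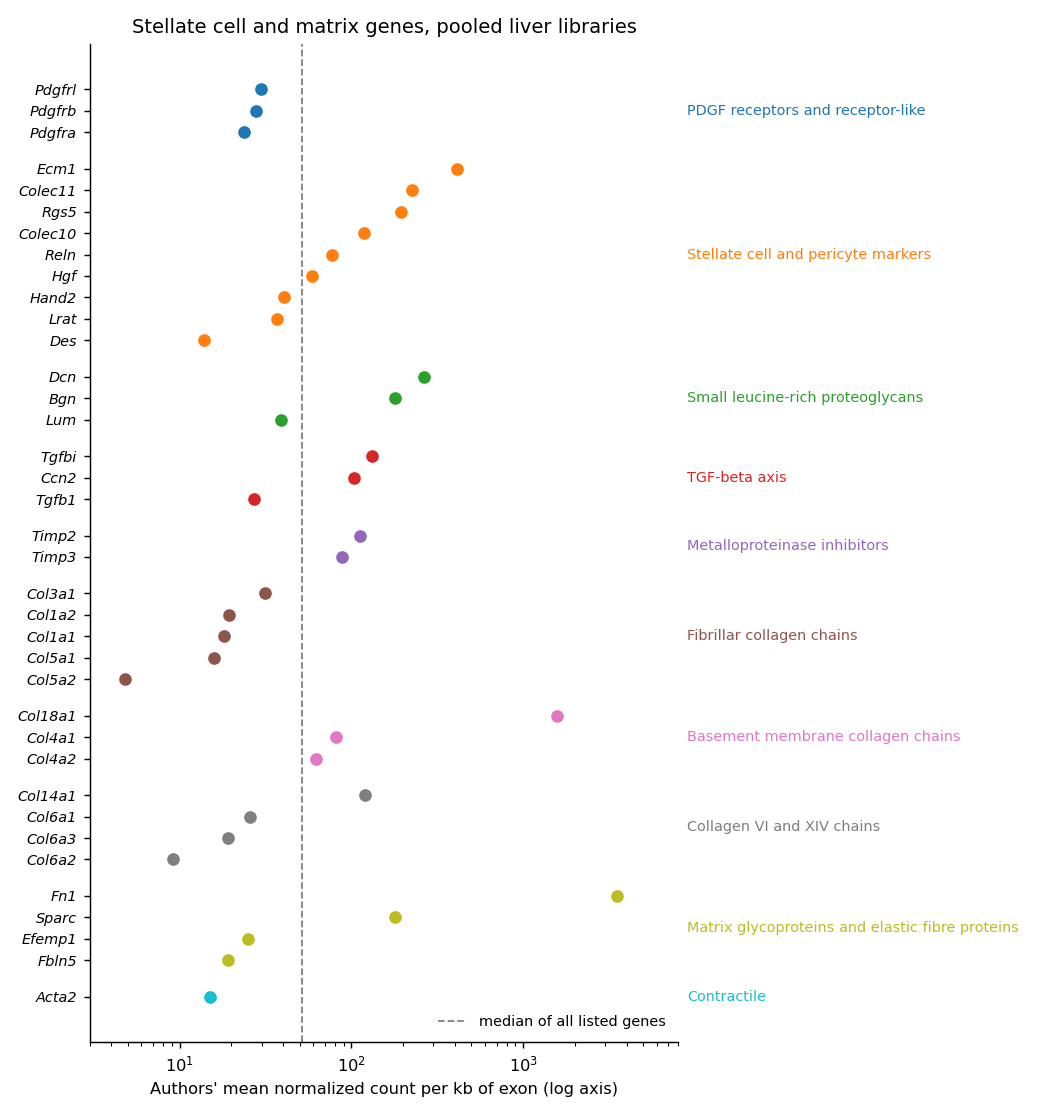
Level of each listed member, as the authors' mean normalized count per kb of exon (x axis, log scale), with one point per gene and the genes grouped by role (colours). The dashed line is the median of all listed genes, 51.5, and 18 of the 37 points lie to its right, led by Fn1 with 3498 and Col18a1 with 1581.

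A pair of genes held most of the counts. Fn1 had a mean normalized count of 40872 and Col18a1, whose product releases the fragment endostatin, one of 11100. Together they made up 77.9% of the summed mean normalized count of the 37 members. All members together held 0.591% of the summed mean normalized count of the table. Without Fn1, Col18a1, Ecm1, Hgf, Colec10, Colec11 and Tgfbi, which were set aside as possibly expressed by other liver cells too, the remaining 30 members held 0.105%. The genes set aside were picked without a measured criterion. The remaining 30 may still include genes of other cells, such as Sparc, so 0.105% is not a share of stellate cells alone.

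Pdgfrl, which encodes a secreted protein with immunoglobulin-like domains related to the PDGF receptors, had a level of 29.8 per kb, from a mean normalized count of 93.2. It took place 23 of 37 among the members, with 22 members higher and 14 lower. Its level was 0.737 times that of the median member. The members closest to it per kb were Col3a1 with 31.4, Pdgfrb with 27.9 and Tgfb1 with 27.1.

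The receptor genes proper were of much the same level per kb. Pdgfrb, the receptor of PDGF-B on stellate cells and other pericytes, had a mean normalized count of 153 and Pdgfra, the alpha receptor, one of 237, which corresponds to 23.6 per kb. The 3 genes thus lay within 1.26-fold of each other per kb of exon, all below the median of all listed genes. Their order depends on the length used. By the undivided mean normalized count, Pdgfrl had 0.393 times the value of Pdgfra and 0.61 times that of Pdgfrb, whereas per kb of coding sequence it had 1.14 times and 1.79 times their values. Pdgfrl has the shortest summed exons of the 3, with 3126 bases, against 5478 in Pdgfrb and 10024 in Pdgfra. Pdgfrl shares none of its exon bases with another annotated gene.

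The PDGF ligands were low in the same table: Pdgfa had a level of 15.5 per kb, Pdgfc 7.00, Pdgfb 6.26 and Pdgfd 5.61. Each of them was below the lowest of Pdgfra, Pdgfrb and Pdgfrl per kb of exon, whereas per kb of coding sequence Pdgfa, with 76.3, exceeded Pdgfra with 72.5 and Pdgfrb with 46.2. A wider list of 17 genes, with PDGF and TGF-beta ligands, TGF-beta receptors and binding proteins and the intracellular Smad transducers, had 16 listed, from 4.75 per kb for Ltbp3, which binds latent TGF-beta, to 215 for Eng, a TGF-beta coreceptor of endothelium.

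Stellate cell and pericyte markers, 9 genes, were all listed and had a median level of 76.8 per kb. Ecm1, a secreted matrix protein, was the highest with 413, followed by Colec11 with 226 and Rgs5 with 194. Rgs5 is a regulator of G protein signaling known from pericytes. Colec10 had 119 per kb. Reln, a large secreted glycoprotein and a marker of stellate cells in liver, had the third-highest mean normalized count of all members, 1823, but 76.8 per kb, since its annotated exons sum to 23738 bases. Hgf, the hepatocyte growth factor made by non-parenchymal cells, had 58.9 per kb. The order of these markers depends on the length: per kb of coding sequence Rgs5 led with 1620, before Colec10 with 658, Ecm1 with 621 and Colec11 with 439. Ecm1, Colec10, Colec11 and Hgf are among the genes set aside above as possibly expressed by other liver cells too. Of the remaining markers, Rgs5 and Reln lay above the median of all listed genes per kb of exon, and Hand2, Lrat and Des below it. Dcn, Lum, Pdgfra and Pdgfrb, stellate cell markers too, were grouped by other roles and are not in the median of 76.8. Among them, Dcn lay above the median of all listed genes with 265 per kb. Lum with 38.7, Pdgfrb with 27.9 and Pdgfra with 23.6 lay below it.

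Hand2, Lrat and Des were the lowest of the 9 markers per kb of exon. Hand2, a transcription factor of mesenchyme, had 40.4 per kb and Lrat, the enzyme that esterifies retinol for storage, 36.8, with mean normalized counts of 95.0 and 197. Per kb of coding sequence Lrat had 284, above Hgf with 194 and Reln with 176. Des, which encodes the intermediate filament desmin, had 13.8 per kb and a mean normalized count of 51.8. Of 9 further stellate cell markers that are no members, 7 were listed, with a median of 12.4 per kb and levels from 1.99 for Ntrk2 to 34.4 for Angptl6. Gfap and Ngfr were not among the listed genes.

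Acta2, the smooth muscle actin that marks activated stellate cells and vascular smooth muscle, had the lowest mean normalized count of all members, 33.2, and a level of 15.1 per kb, the 18.3rd percentile of all listed genes. Other markers of smooth muscle, portal fibroblasts and mesothelium were similarly low: 6 of 10 were listed, from 4.91 per kb for Upk3b to 21.9 for Tagln.

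The fibrillar collagen chains, the main protein of scar tissue, all lay below the median of all listed genes per kb of exon. By the undivided mean normalized count, Col3a1 and Col1a2 lay above it, at the 57.3rd and 50.6th percentiles. Col3a1 had 31.4 per kb, Col1a2 19.3, Col1a1 18.2, Col5a1 15.8 and Col5a2 4.79. Their mean normalized counts ran from 45.9 for Col5a2 to 308 for Col3a1. Type I collagen is a trimer of 2 chains from Col1a1 and 1 chain from Col1a2. The level of Col1a1 was 0.94 times that of Col1a2 per kb of exon, and 0.448 times per kb of the longest transcript. Per kb of coding sequence it was 0.469 times, and by the undivided mean normalized count 0.496 times, so only the summed exons brought the pair near 1. The exons annotated for Col1a2 sum to 12426 bases, whereas its longest transcript has 5348, so the ratio of this pair depends on the transcript models.

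Collagen VI forms beaded filaments from 3 different chains. Its genes were of low level, with 25.8 per kb for Col6a1, 19.1 for Col6a3 and 9.16 for Col6a2. The ratio of Col6a3 to Col6a2 was 2.08 per kb of exon and 0.943 per kb of coding sequence, so that the order of this pair turned with the length. Col14a1, a collagen that sits on the surface of fibrils, had 120 per kb and a mean normalized count of 839, more than any fibrillar chain by either measure.

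The basement membrane chains were higher than the fibrillar chains, and all 3 lay above the median of all genes per kb of exon. Per kb of coding sequence, Col4a1, with 121, stood at the 40.5th percentile of all genes, and Col4a2 was lower, with 81.0. Col18a1 had 1581 per kb, which was 19.5 times the level of Col4a1 with 81.2. Col4a2 had 62.6. Both chains of type IV collagen assemble into a network in a ratio of 2 to 1, and the level of Col4a1 was 1.30 times that of Col4a2 per kb of exon, with values from 1.43 to 1.50 by the other measures of length and by the undivided mean normalized count.

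**Figure D3:**
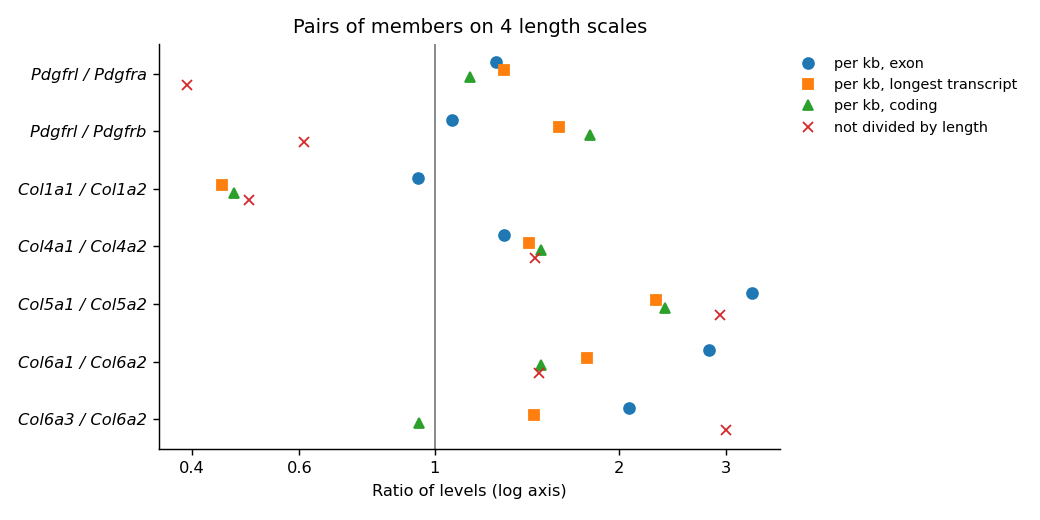
Ratios of the levels of 7 pairs of members (x axis, log scale) when the mean normalized count is divided by exon length (circles), by the longest transcript (squares), by coding length (triangles) or not at all (crosses). The ratios of Pdgfrl to Pdgfra and Pdgfrb fall below 1 only without division by length (0.393 and 0.61), whereas Col4a1 to Col4a2 stays between 1.30 and 1.50.

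In the RefSeq annotation of GRCm38.p6, 4 pairs of members stand next to each other with no other protein-coding gene between them. They differ in how alike their levels were. Col4a1 and Col4a2, on chromosome 8, were within 1.30-fold per kb, and Col6a1 and Col6a2, on chromosome 10, within 2.81-fold. Col3a1 exceeded its neighbour Col5a2 on chromosome 1 by 6.55-fold, and Dcn exceeded its neighbour Lum on chromosome 10 by 6.85-fold per kb of exon, and by 15.6-fold per kb of coding sequence.

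Col4a1 and Col4a2 are transcribed in opposite directions from a shared region, which is shown because this pair of neighbours had the closest levels per kb of exon. Per kb of coding sequence, their ratio of 1.50 was matched by that of Col6a1 to Col6a2, 1.49. RefSeq places their start sites 21 bases apart, with the first exons overlapping. The promoter window of Col4a1 (250 bases before to 50 bases after its start) lies at chr8:11312777-11313076 on the minus strand of GRCm38.p6 and is given 5′ to 3′ with the 78 bases that it shares with the window of Col4a2 in capitals. Of its 300 bases, 74% are G or C.
Col4a1 promoter: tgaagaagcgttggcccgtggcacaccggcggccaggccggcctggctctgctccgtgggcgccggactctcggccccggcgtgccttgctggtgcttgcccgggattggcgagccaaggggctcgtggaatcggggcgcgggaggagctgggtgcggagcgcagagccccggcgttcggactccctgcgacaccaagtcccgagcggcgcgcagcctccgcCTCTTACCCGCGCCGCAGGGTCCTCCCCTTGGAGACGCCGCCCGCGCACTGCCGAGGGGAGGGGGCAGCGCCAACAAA

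The small leucine-rich proteoglycans bind collagen fibrils and control their width. Dcn, the gene of decorin, was the fourth-highest member with 265 per kb, and its mean normalized count was 1549. Bgn, the gene of biglycan, had 180 per kb and 1099, although by the longest transcript Dcn had 0.800 times the level of Bgn. Lum, the gene of lumican, had 38.7 per kb and a mean normalized count of 94.8, far below both.

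Among the matrix glycoproteins other than Fn1, Sparc, a collagen-binding protein of endothelium and stroma, had 178 per kb. The elastic fibre genes Efemp1 and Fbln5 had 25.1 and 19.2 per kb. Of the wider list of elastic fibre and other matrix proteins, 10 of 11 genes were listed, with a median of 9.40 per kb. The highest of them was Fgb, the fibrinogen beta chain of hepatocytes, with 11434, and the lowest was Fbln2 with 4.11.

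On the TGF-beta axis, the ligand Tgfb1 had 27.1 per kb, while Tgfbi, a secreted protein induced by TGF-beta, had 132 and Ccn2, a matricellular protein also known as connective tissue growth factor, had 104. Of the exon bases of Ccn2, 23.2% overlap exons of a gene on the opposite strand, and for Timp3 and Hand2 the shares are 21.3% and 19.6%. The libraries kept the strand, but whether it was used in counting is not given in the sources used here, so the levels of these 3 genes are less certain. Another 2 members, Pdgfra and Des, have such overlaps of more than 5% of their exons, and Hgf shares 6.74% of its exon bases with a gene on the same strand.

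The inhibitors of metalloproteinases Timp2 and Timp3 had 112 and 88.6 per kb. The order of this pair turned with the length, since Timp2 had 0.578 times the level of Timp3 per kb of coding sequence. Of the wider list of matrix-degrading proteinases and the plasminogen system, 9 of 11 genes were listed. Plg, the plasminogen gene of hepatocytes, was the highest with 7231 per kb, and the lowest was Plau, the urokinase gene, with 6.63. Mmp14, a membrane-anchored collagenase, had 114 per kb, and Mmp2, the gelatinase that it activates, had 12.7.

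Collagen needs hydroxylation, a chaperone and cross-linking on its way to a fibre, and cells hold the matrix through integrins. Of 14 genes for collagen-modifying enzymes, 12 were listed, from 2.98 per kb for Plod2, a lysyl hydroxylase, to 3396 for P4hb, the disulfide isomerase that is also a subunit of prolyl 4-hydroxylase. Serpinh1, the collagen chaperone of collagen-making cells, had 41.2 per kb. All 10 genes of the list of laminins and other basement membrane proteins were listed, from 9.39 per kb for Nid2 to 82.3 for Agrn. The 8 integrin subunits ran from 14.9 per kb for Itga8 to 518 for Itgb1, the shared beta subunit of many matrix receptors.

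Marker lists of other liver cells gave the setting of these levels. All 8 hepatocyte markers were listed, with a median of 19551 per kb, led by Alb with 519843, so the tissue had the defining markers of its label. The 10 sinusoidal endothelial markers had a median of 127 per kb, from 41.4 for Lyve1 to 289 for Clec4g. The 10 Kupffer cell and macrophage markers had a median of 211, from 55.4 for Timd4 to 791 for Clec4f. Both medians were above that of the stellate cell and matrix genes, although their ranges overlap, and no test of a difference could be made. Of the cholangiocyte list, 2 of 7 genes were listed, Spp1 with 91.9 and Sox9 with 9.94, whereas Krt7, Krt19 and Epcam were not.

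**Figure D4:**
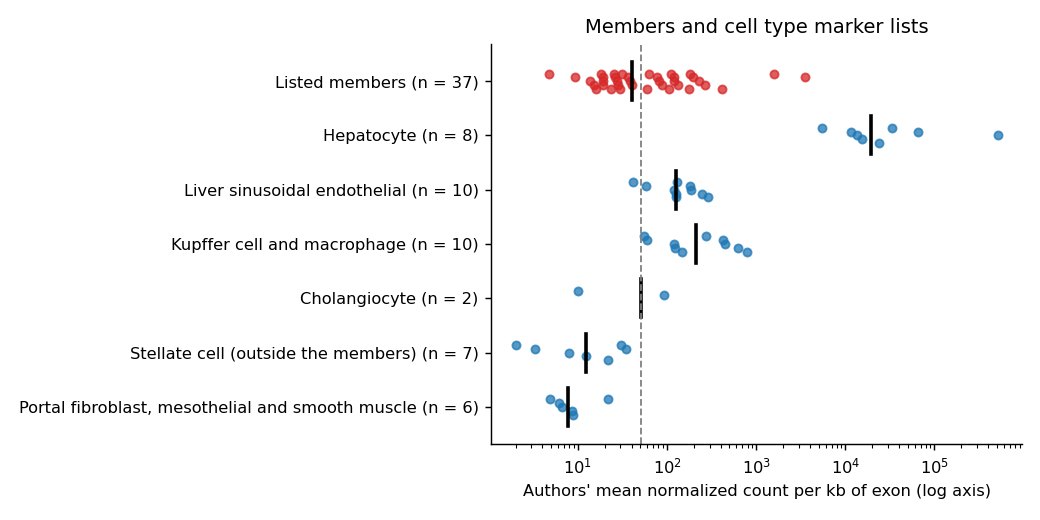
Level per kb of exon (x axis, log scale) of the listed members (red) and of the marker lists of liver cell types (blue), with one point per gene and the median of each list as a black bar. The dashed line is the median of all listed genes, 51.5; the median of the members is 40.4, that of the endothelial list 127 and that of the hepatocyte list 19551.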

How the data were processed

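Per the labels and the methods, total RNA was isolated with TRIzol, depleted of rRNA and turned into directional libraries, and the authors aligned the reads with STAR 2.5.3a, counted them on Ensembl genes and normalized them with DESeq2 (RLE). The genome build is not given in the sources used here. The authors' deposited liver table holds for each gene the mean normalized count, a signal averaged over the libraries of both groups, and this column alone was used. The other 5 value columns hold the authors' own comparison (log2 fold change, standard error, Wald statistic, p-value and adjusted p-value) and were not used. Depth per library is unknown, so no interval or floor is given.

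Lengths were taken from GENCODE release M21 for 11754 of the 11779 genes by Ensembl identifier: summed exons, longest transcript and, for 11384, longest coding sequence. Levels are mean normalized counts divided by exon length in kb. Genes were named by list membership: all listed members by role, and in the wider lists the highest and lowest per kb. Pdgfa, Pdgfb, Pdgfc, Pdgfd, Mmp2, Mmp14 and Serpinh1 were named after their values were seen. The members and lists were chosen with earlier results of these data known. The length and percentile steps were tested on simulated data. Alternatives were another length, no division by length, a minimum mean normalized count of 50, and leaving out 7 members. Python 3.11.15 with pandas 2.3.3, numpy 2.4.6 and matplotlib 3.10.9 was used. Positions and promoter sequence are those of RefSeq on GRCm38.p6. One gene of the marker lists is not reported here.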

Additional observations from a re-analysis of the deposited data

How the results depend on the processing

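No paired analysis was possible because the table holds no values of single mice, and for the same reason no mouse could be left out. The median level of the members, 40.4 per kb of exon, was 58.9 with genes below a mean count of 50 left out, 30.6 without 7 members that other liver cells may express, 55.4 per kb of the longest transcript and 121 per kb of coding sequence. Its percentile, 42.5 in the report, was then 45.4, 34.8, 42.7 and 40.5, and 56.4 without division by length. Of the 10 highest members, 9, 7 and 8 were among the 10 highest by longest transcript, by coding length and without division by length. Pdgfrl took place 21 by longest transcript, 23 by coding length and 32 without division by length. In the same order of settings, the ratio of Pdgfrl to Pdgfra was 1.30, 1.14 and 0.393, and that of Pdgfrl to Pdgfrb 1.60, 1.79 and 0.61. The ratios were 0.448, 0.469 and 0.496 for Col1a1 to Col1a2, 1.43, 1.50 and 1.46 for Col4a1 to Col4a2, 2.31, 2.38 and 2.93 for Col5a1 to Col5a2, 1.77, 1.49 and 1.48 for Col6a1 to Col6a2, and 1.46, 0.943 and 2.99 for Col6a3 to Col6a2. Pairs chosen after seeing the data also depended on the length: in the same order, Dcn to Lum (6.85 per kb of exon) was 8.52, 15.6 and 16.3, Timp2 to Timp3 (1.26) was 0.767, 0.578 and 0.603, Colec11 to Colec10 (1.90) was 1.92, 0.667 and 0.67, and Dcn to Bgn (1.47) was 0.800, 1.47 and 1.41. The ratios that crossed 1 did so through the lengths of the genes, since the counts are the same in each setting. Levels under a mean normalized count of 15.6 were not visible.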
